A study of Mus musculus with 4 samples.

Results

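The 10 genes described here are readouts of endoplasmic reticulum (ER) stress and the unfolded protein response: *Hspa5*, *Hsp90b1*, *Xbp1*, *Atf4*, *Atf6*, *Ddit3*, *Trib3*, *Chac1*, *Asns* and *Herpud1*. They were set by name as a group of known markers of the response, with earlier results of these data known, and all 10 were found by symbol among the 24346 genes listed for each library. RNA sequencing of dorsal skin compared a Cont-IMQ group of 2 libraries with a 7KC-IMQ group of 2 libraries, all from male C57BL/6 mice aged 8 weeks when the diets began. Both groups ate a high-fat, high-cholesterol, high-sucrose diet with bile salt for 3 weeks, which gives steatohepatitis and is called the NASH diet, and both then had 5% imiquimod (IMQ) cream on the skin for 1 day. IMQ activates Toll-like receptor 7 and gives a psoriasis-like dermatitis. Only the 7KC-IMQ group had 7-ketocholesterol (7KC), an oxidized cholesterol, in the NASH diet. The control skin therefore carried the diet and the cream as well, and no skin without IMQ is part of this comparison. The libraries are of whole skin, in which fewer cells of a type and less RNA per cell cannot be told apart. The labels do not say whether each library is a single animal, so every p-value measures the spread between these libraries.

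The ER membrane holds 3 sensors that report the load of unfolded protein. IRE1 splices the *Xbp1* mRNA, PERK phosphorylates eIF2alpha so that *Atf4* mRNA is translated more, and ATF6 travels to the Golgi, where it is cut into a transcription factor. XBP1 and ATF6 act on genes of chaperones and of ER-associated degradation, and ATF4 acts on genes of amino acid supply, tRNA charging and, in prolonged stress, cell death through CHOP, the product of *Ddit3*. ATF4 also follows other eIF2alpha kinases, for example when amino acids are short, and its targets are then called the integrated stress response. Keratinocytes use the response during normal differentiation, and 7KC raises CHOP in cultured vascular smooth muscle cells. Splicing, translation, phosphorylation and cleavage are not visible in values per gene, which measure mRNA level only.

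The promoters of these genes are where the 3 arms meet, so the response elements found in them are shown first. RefSeq windows of GRCm38.p6 from 250 bases before to 50 bases after the start of transcription were held for 9 of the 10 genes (not for *Atf6*) and were searched on both strands. The ER stress response element, ERSE, is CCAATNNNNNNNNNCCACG, where NF-Y binds the CCAAT part and ATF6 the CCACG part. It was present in 0.119% of 32851 windows and among the 10 genes in those of *Hspa5* and *Hsp90b1*. A related element, ERSE-II, is ATTGG, any 1 base and then CCACG, was present in 0.0365% of windows, and lay in the window of *Herpud1*. Both share the letters CCACG. The XBP1 element searched, UPRE, is TGACGTG, was present in 2.01% of windows, and lay in the window of *Hspa5*, away from its ERSE. The C/EBP-ATF response element, CARE, which ATF4 binds with a C/EBP partner, was searched as TGATGNAA, was present in 3.97% of windows, and lay in those of *Asns*, *Trib3*, *Chac1* and *Herpud1*. The windows of *Xbp1*, *Atf4* and *Ddit3* held none of these letters, which says nothing of the factors themselves. The stretches below are given 5′ to 3′ on the strand of the gene, with the element in capitals. The elements of *Trib3* and *Chac1* lie on the opposite strand and so read as their reverse complement.
*Hspa5* ERSE, chr2:34772005-34772063, plus strand: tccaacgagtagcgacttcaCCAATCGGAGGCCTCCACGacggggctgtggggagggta
*Hsp90b1* ERSE, chr10:86705618-86705676, minus strand: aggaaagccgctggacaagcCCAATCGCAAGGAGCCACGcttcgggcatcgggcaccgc
*Herpud1* ERSE-II, chr8:94386357-94386407, plus strand: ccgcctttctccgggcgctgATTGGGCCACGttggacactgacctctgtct
*Asns* CARE, chr6:7693205-7693252, minus strand: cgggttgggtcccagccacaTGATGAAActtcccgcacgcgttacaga
*Trib3* CARE, chr2:152344019-152344066, minus strand: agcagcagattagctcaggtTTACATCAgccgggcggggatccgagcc
*Chac1* CARE, chr2:119351029-119351076, plus strand: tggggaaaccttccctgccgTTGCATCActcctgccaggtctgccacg
Counted from the RefSeq start of transcription, the *Hspa5* ERSE spans bases -65 to -47, the *Herpud1* ERSE-II bases -52 to -42, and the *Asns* CARE bases -23 to -16. The *Chac1* CARE spans bases -193 to -186, and that of *Trib3* lies after the start, at bases 15 to 22. *Hsp90b1* holds the ERSE shown, at bases -212 to -194, and another on the opposite strand at bases -107 to -89.

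Levels are given in FPKM, fragments scaled to transcript length and to the mapped reads of the library, as the authors calculated them, so levels of genes of different length can be compared. Gene positions are those of GENCODE M21 on GRCm38, the build of the files (mm10). A GENCODE span can begin before the RefSeq start of transcription, so the *Hspa5* ERSE and the *Asns* CARE lie inside the spans given below. Differences are given on the log2(FPKM + 1) scale as 7KC-IMQ minus Cont-IMQ, which understates the change of low genes. The test was limma across all genes whose mean FPKM reached 0.1, which left 15896 genes and all 10 ER stress genes, and p-values were adjusted over all of them at a threshold of 0.05. With 2 libraries against 2, a two-sided exact permutation test of a single gene cannot go below p = 0.33. The depth that brings low genes closest to whole reads was 14960000 to 16220000 reads per library, on which the 10 genes held at least 184 reads each in every library. Keratinocyte markers, which define epidermis, summed to 23750 and 15820 FPKM in the control libraries, replicate 1 first. They summed to 18460 and 20460 FPKM in the 7KC-IMQ libraries. The summed FPKM of 10 hair follicle markers was 110.1 and 1408 in the control libraries against 418.2 and 367.9 in the 7KC-IMQ libraries, replicate 1 first.

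The 10 genes covered a wide range of abundance in IMQ-treated skin. *Hspa5*, *Hsp90b1*, *Atf4* and *Xbp1* were the most abundant, with means of 306, 294, 214 and 115 FPKM in the controls, and their mean over the 4 libraries exceeded that of 98.2%, 98.1%, 97.6% and 95.2% of the genes tested. *Hspa5* and *Hsp90b1*, next to each other in this order, overlapped between libraries of the Cont-IMQ group, since *Hsp90b1* was 309 FPKM in replicate 2. *Herpud1* followed at 81.6 FPKM and *Asns* at 30.3 FPKM. *Ddit3* at 18.3 FPKM, *Chac1* at 13.9 FPKM, *Atf6* at 10.8 FPKM and *Trib3* at 8.0 FPKM were the lowest, and each of these lay clear of its neighbor in both control libraries. *Chac1* and *Trib3* spread so far in the 7KC-IMQ group that their order among the low genes was not the same in its 2 libraries.

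**Figure D1:**
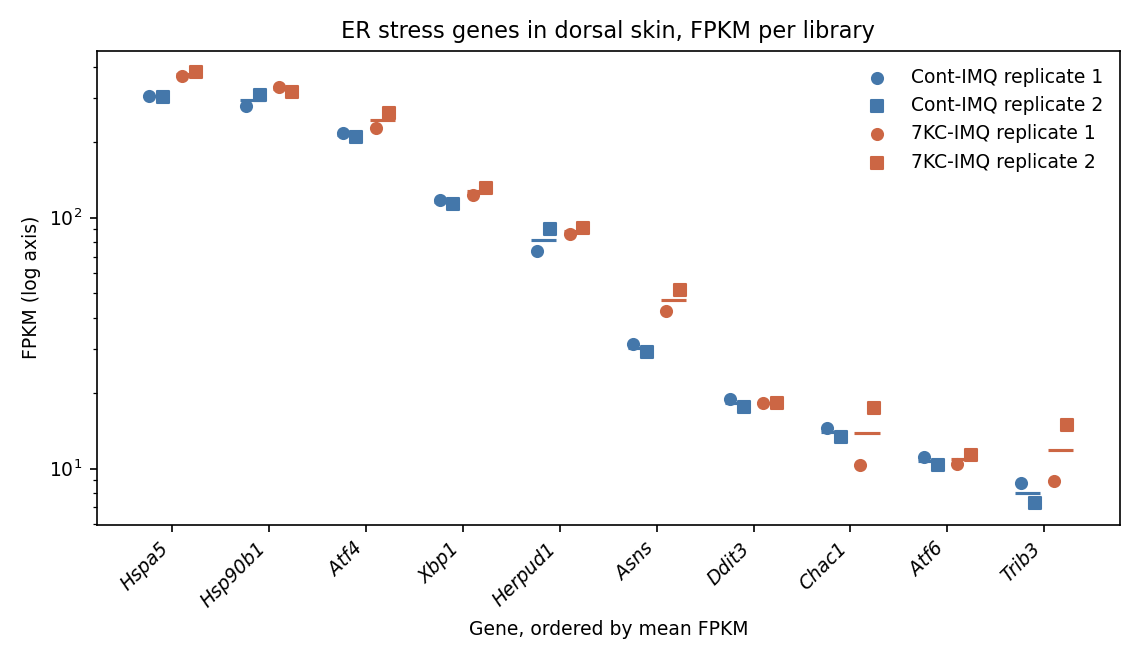
FPKM of each of the 10 ER stress genes in the 4 libraries, on a log axis shared by all genes. Points are libraries and bars are group means. *Asns* and *Hspa5* show 7KC-IMQ libraries that both lie above the Cont-IMQ libraries, whereas *Trib3* and *Chac1* show 1 high library, 7KC-IMQ replicate 2. The other 7KC-IMQ library lies just above the controls for *Trib3* and below them for *Chac1*.

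Between the groups, 6 of the 10 genes had both 7KC-IMQ libraries above both control libraries: *Hspa5*, *Hsp90b1*, *Xbp1*, *Atf4*, *Trib3* and *Asns*. Among all genes tested, 23.9% were higher without overlap. None of the 10 was lower in this way, against 22.9% of all genes, and the other 4 overlapped. By limma, 0 of the 10 genes passed the adjusted threshold, which 1 gene of 15896 passed (0.00629%). At an unadjusted p under 0.05, 2 of the 10 genes, *Asns* and *Hspa5*, were higher, against 7.5% of all genes. The median difference of the 10 genes was 0.15 on the log2(FPKM + 1) scale, and that of all genes tested was -0.01.

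These shares have to be read against abundance, since highly expressed genes as a whole were more often higher in the 7KC-IMQ group. Of the 807 genes with a mean of 100 to 1000 FPKM, 47.6% were higher without overlap and the median difference was 0.12, and *Hspa5*, *Hsp90b1*, *Atf4* and *Xbp1* belong to this range. Of the 2217 genes with 30 to 100 FPKM, which include *Asns* and *Herpud1*, 38.4% were higher without overlap. The share was 28.3% for the 3959 genes with 10 to 30 FPKM, which include *Ddit3*, *Chac1* and *Atf6*, and 16.5% for the 6011 genes with 1 to 10 FPKM, which include *Trib3*. The sum of FPKM over all genes was also largest in 7KC-IMQ replicate 2, at 702218 against 630272 to 654666 in the other libraries. In that library 8 of the 10 genes had their highest value. Cont-IMQ replicate 2 had the smallest sum, and 7 of the 10 genes had their lowest value there. When every library was scaled to the same sum, 5 of the 10 genes were higher without overlap, against 15.0% of all genes. The median of the 10 was then 0.06, and that of all genes tested moved down too, to -0.07.

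**Figure D2:**
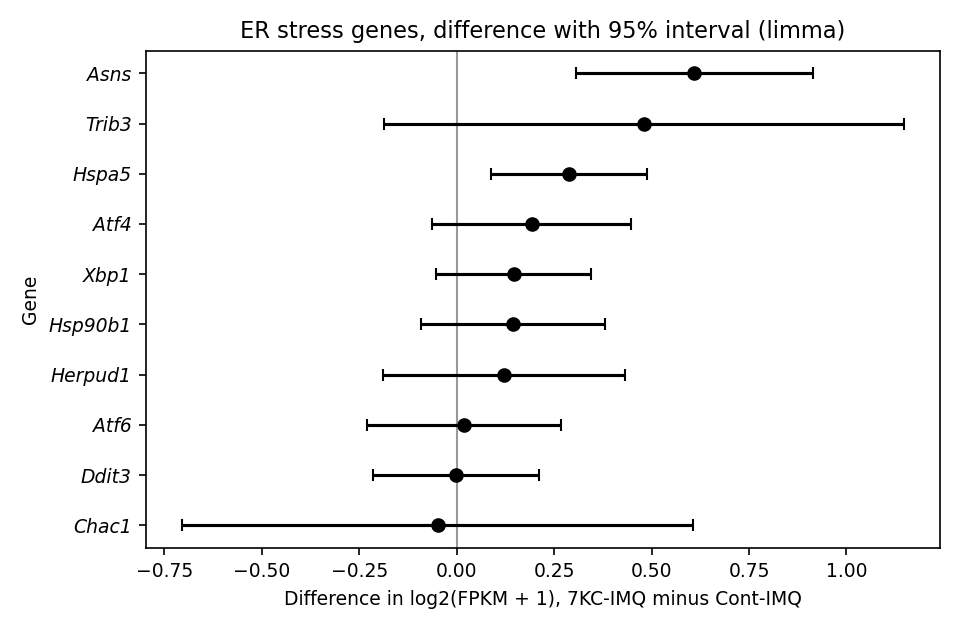
Difference of each ER stress gene between the groups (7KC-IMQ minus Cont-IMQ, log2(FPKM + 1) scale), with points for the fitted value and lines for the 95% interval. Only the intervals of *Asns*, 0.30 to 0.91, and *Hspa5*, 0.09 to 0.49, lie above 0.

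*Hspa5* (chr2:34771970-34777547, plus strand) encodes BiP, the HSP70 chaperone of the ER lumen that also holds the 3 sensors inactive, and it was the most abundant of the 10 genes. It measured 307 and 304 FPKM in the control libraries (Cont-IMQ, replicate 1 first, as throughout) and 367 and 380.1 FPKM in the 7KC-IMQ libraries. The groups did not overlap, and the replicates lay close together, with means of 306 ± 2.04 and 373 ± 9.48 FPKM (SD, n = 2 each). The ratio of means was 1.22 and the difference 0.29 ± 0.076 (SE), with a limma adjusted p = 0.356. *Hsp90b1* (chr10:86690209-86705509, minus strand) encodes GRP94, the HSP90 chaperone of the ER that folds integrins and Toll-like receptors. It measured 280.1 and 309 FPKM in the control libraries and 333 and 317 FPKM in the 7KC-IMQ libraries. Its groups were separated by less than the gap between its control replicates, and the difference was 0.14 ± 0.089 (SE; adjusted p by limma = 0.549). The difference of *Hsp90b1* was 0.06 with equal FPKM sums, 0.09 after quantile normalization and 0.08 without Cont-IMQ replicate 1. In the annotation, 1.73% of the distinct 75-base windows over all its transcripts also occurred in a transcript of another gene, and no such windows were found for the other 9 genes.

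The 3 transcription factors of the sensor arms were *Xbp1*, *Atf6* and *Atf4*. *Xbp1* (chr11:5520659-5525893, plus strand), whose mRNA is spliced by IRE1, measured 118 and 113 FPKM in the control libraries and 124 and 132 FPKM in the 7KC-IMQ libraries. The groups were close but did not overlap, and the difference was 0.15 ± 0.075 (SE; adjusted p by limma = 0.489). It was 0.06 with equal FPKM sums and 0.04 after quantile normalization. *Atf6* (chr1:170704674-170867771, minus strand), the factor released by cleavage, measured 11.1 and 10.4 FPKM in the control libraries and 10.5 and 11.4 FPKM in the 7KC-IMQ libraries. The groups overlapped, with a difference of 0.02 and a 95% interval of -0.23 to 0.27. The sign of the *Atf6* difference turned to -0.06 with equal FPKM sums, -0.04 without 7KC-IMQ replicate 2 and -0.03 without Cont-IMQ replicate 2. With equal FPKM sums the median of all genes tested was -0.07.

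*Atf4* (chr15:80255184-80257541, plus strand), the factor translated when eIF2alpha is phosphorylated, measured 217 and 210.1 FPKM in the control libraries and 228 and 261 FPKM in the 7KC-IMQ libraries. Both 7KC-IMQ libraries were higher, replicate 2 by more than replicate 1, and the group means were 214 ± 4.8 and 245 ± 23.8 FPKM (SD, n = 2 each). The difference was 0.19 ± 0.097 (SE), with a 95% interval of -0.06 to 0.45 and a limma adjusted p = 0.481. It was 0.09 without 7KC-IMQ replicate 2, 0.29 without 7KC-IMQ replicate 1, and 0.11 both with equal FPKM sums and after quantile normalization.

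The 4 genes known as ATF4 targets had unlike fitted differences, which were not tested against each other. *Asns* (chr6:7675169-7693254, minus strand) encodes asparagine synthetase, which makes asparagine from aspartate, and it had the largest difference of the 10 genes. It measured 31.4 and 29.2 FPKM in the control libraries and 42.5 and 51.4 FPKM in the 7KC-IMQ libraries. The gap between the groups was wider than that within either, with means of 30.3 ± 1.53 and 46.9 ± 6.24 FPKM (SD, n = 2 each) and a ratio of means of 1.55. The difference was 0.61 ± 0.12 (SE), with a limma adjusted p = 0.352, and over the 12 other settings tried it was 0.48 to 0.74 with no adjusted p below 0.304. Counted from the RefSeq start of transcription, *Asns* is the gene whose CARE lies closest before it among those shown above. Whether the element bears on the difference was not tested.

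*Trib3* (chr2:152337422-152344032, minus strand) encodes a pseudokinase that binds ATF4 and AKT and damps the response. It measured 8.72 and 7.29 FPKM in the control libraries and 8.88 and 14.9 FPKM in the 7KC-IMQ libraries. A single library, 7KC-IMQ replicate 2, stood 1.68 times above the other 7KC-IMQ library, which itself lay just above the controls. The difference of 0.48 ± 0.25 (SE; adjusted p by limma = 0.496) was 0.14 without 7KC-IMQ replicate 2 and 0.82 without 7KC-IMQ replicate 1. *Chac1* (chr2:119351229-119354381, plus strand) encodes an enzyme that breaks down glutathione, and it measured 14.5 and 13.4 FPKM in the control libraries and 10.3 and 17.5 FPKM in the 7KC-IMQ libraries. The 7KC-IMQ libraries held both the lowest and the highest value, while the group means were 13.9 FPKM each. The difference of -0.05, with a 95% interval of -0.70 to 0.61, was 0.31 without 7KC-IMQ replicate 1 and -0.40 without 7KC-IMQ replicate 2. In these 2 genes the estimated reads behind a library were few, 201 to 407 for *Trib3* and 240 to 375 for *Chac1*. *Ddit3* had 184 to 205. The part of read number in the spread of *Trib3* and *Chac1* was not tested.

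*Ddit3* (chr10:127290774-127296288, plus strand) encodes CHOP, the factor tied to cell death in prolonged ER stress. It measured 18.9 and 17.6 FPKM in the control libraries and 18.3 and 18.2 FPKM in the 7KC-IMQ libraries. Both 7KC-IMQ values lay between the controls. The 95% interval of the difference was -0.21 to 0.21, so a change larger than that in either direction was outside the interval. *Ddit3* overlaps *Mars*, a gene on the opposite strand, and the libraries were made with a kit that keeps strand, but the strand setting used for the FPKM values is not given in the sources used here.

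*Herpud1* (chr8:94386438-94395377, plus strand) encodes an ER membrane protein that helps to assemble the machinery of ER-associated degradation, and it was the only one of the 10 genes with both an ERSE-II and a CARE in its window. It measured 73.4 and 89.8 FPKM in the control libraries and 86.1 and 90.8 FPKM in the 7KC-IMQ libraries. Cont-IMQ replicate 1 was lower than the other libraries, which lay close together. The difference of 0.12 ± 0.12 (SE; adjusted p by limma = 0.699) was -0.02 without Cont-IMQ replicate 1 and 0.27 without Cont-IMQ replicate 2. *Herpud1* also overlaps an antisense gene in the annotation.

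The rest of the pathway was described by 8 lists holding 144 genes, the 10 included, of which 143 were tested. By limma, 0 passed the adjusted threshold, and the lowest adjusted p was 0.331. At an unadjusted p under 0.05, 28 were higher and 1 was lower, against 7.5% higher among all genes tested. Without overlap, 77 were higher (53.8%) and 15 lower, against 23.9% and 22.9% of all genes, and the median difference was 0.13. The median level of the listed genes was 28.1 FPKM, and 28.3% of all genes at 10 to 30 FPKM and 38.4% at 30 to 100 FPKM were higher without overlap. With the 10 genes left out, 71 of 133 were higher without overlap (53.4%) and 15 lower.

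**Figure D3:**
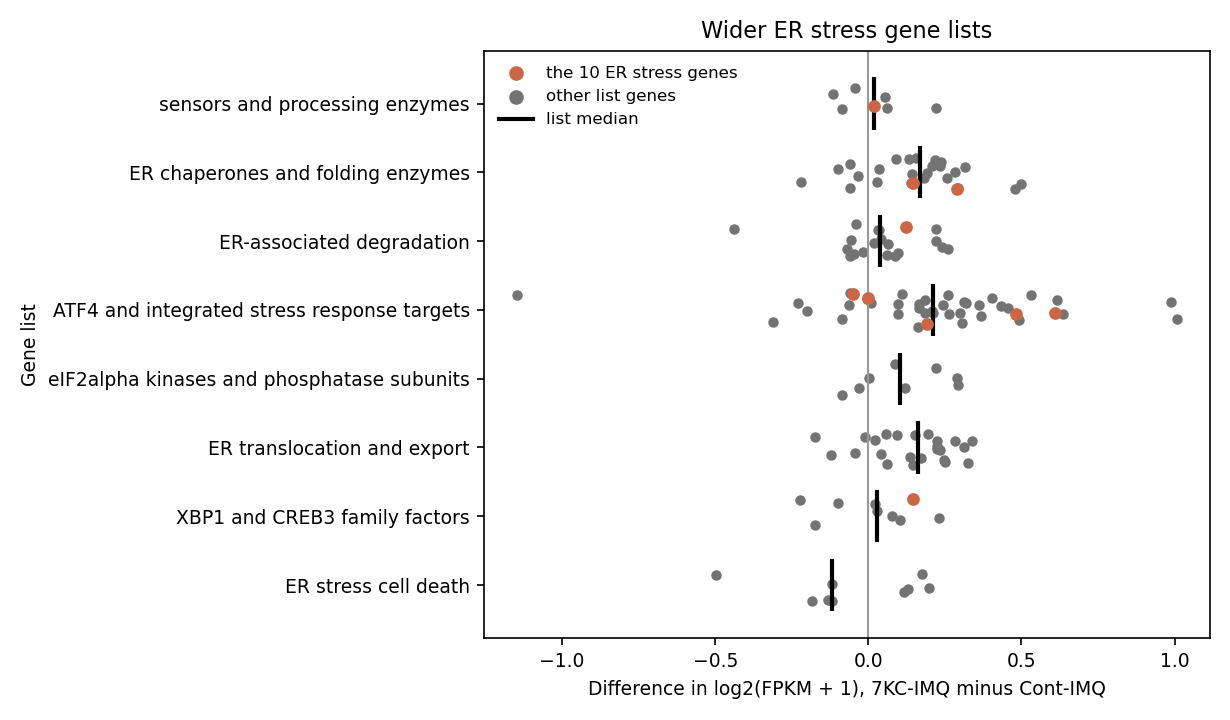
Difference of every gene of the 8 lists (7KC-IMQ minus Cont-IMQ, log2(FPKM + 1) scale), 1 row per list, with orange points for the 10 ER stress genes, gray points for other list genes and a bar for the list median. The medians of the ATF4 list, 0.21, and the chaperone list, 0.17, lie furthest to the right, and that of the cell death list, -0.12, lies left of 0.

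The list of sensors and their processing enzymes, to which *Atf6* belongs, had a median difference of 0.02. Of its 7 genes tested, 1 was higher and 2 were lower without overlap, and 0 passed an unadjusted p under 0.05 by limma. *Eif2ak3*, which encodes PERK, measured 7.65 and 6.49 FPKM in the control libraries and 8.04 and 8.72 FPKM in the 7KC-IMQ libraries. *Ern1*, which encodes IRE1, measured 7.46, 7.93, 7.96 and 6.48 FPKM in the same order, and its groups overlapped. *Mbtps1*, which encodes the protease that makes the first cut in ATF6, measured 39.2 and 39.8 FPKM in the control libraries and 37.3 and 35.4 FPKM in the 7KC-IMQ libraries. Differences were 0.05 for *Atf6b*, the paralog of *Atf6*, -0.04 for *Mbtps2*, the protease of the other cut in ATF6, and 0.06 for *Rtcb*, the ligase that joins spliced *Xbp1* mRNA. The XBP1 and CREB3 family list, with *Xbp1* in it, had 4 of 9 genes higher and 2 lower without overlap, and a median of 0.03. Of all genes tested, 23.9% were higher and 22.9% lower without overlap. At 10 to 30 FPKM, the range of the median level of both lists, 28.3% were higher. Beside *Xbp1*, the differences were 0.23 for *Creb3l2*, 0.10 for *Nfyb*, a subunit of NF-Y, -0.22 for *Creb3l3* and -0.10 for *Creb3l4*.

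Around *Hspa5* and *Hsp90b1*, 18 of 26 ER chaperones and folding enzymes were higher without overlap (69.2%), 1 was lower and 9 were higher at an unadjusted p under 0.05. The median difference was 0.17. The median level of the list was 57.9 FPKM, and of all genes at 30 to 100 FPKM 38.4% were higher without overlap and 14.8% were higher at an unadjusted p under 0.05. *Ero1l*, the oxidase that recharges protein disulfide isomerase, measured 21.2 and 23.1 FPKM in the control libraries and 27.8 and 36.1 FPKM in the 7KC-IMQ libraries. Its difference of 0.50 was the largest of the list, followed by 0.48 for *Fkbp11*, an ER prolyl isomerase. *Ero1lb*, its paralog, measured 2.02 and 2.19 FPKM against 1.97 and 1.40 FPKM and was the gene of the list that was lower without overlap. With equal FPKM sums, 11 chaperone genes were higher without overlap, against 15.0% of all genes of any level. Their median was then 0.09, against -0.07 for all genes tested.

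ER-associated degradation, the list of *Herpud1*, had a median difference of 0.04. Of its 20 genes, 8 were higher without overlap (40.0%), 3 were lower and 2 were higher at an unadjusted p under 0.05. Of all genes at 10 to 30 FPKM, the range of the list's median, 28.3% were higher without overlap and 8.89% at an unadjusted p under 0.05. *Syvn1*, the ubiquitin ligase HRD1 at the center of the machinery, measured 18.8 and 21.2 FPKM in the control libraries and 23.6 and 23.9 FPKM in the 7KC-IMQ libraries. *Derl3*, a Derlin, measured 1.15 and 2.62 FPKM against 1.13 and 0.993 FPKM, with a difference of -0.44. The difference was 0.26 for *Vimp*, which encodes selenoprotein S, and -0.07 for *Ufd1l*, a cofactor of the VCP ATPase. In the list of translocation into and export from the ER, 14 of 24 genes were higher without overlap (58.3%, against 38.4% of all genes at 30 to 100 FPKM), 1 was lower, and the median was 0.16. *Ssr2*, a subunit of the translocon-associated complex, measured 110.1 and 102.1 FPKM in the control libraries and 129.3 and 139.6 FPKM in the 7KC-IMQ libraries. The difference was 0.33 for *Sec61b*, a subunit of the translocon channel, and -0.17 for *Golgb1*, the Golgi tether giantin.

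The list of ATF4 and integrated stress response targets, which holds *Atf4*, *Ddit3*, *Trib3*, *Chac1* and *Asns*, had the highest median difference, 0.21. Of its 42 genes, 27 were higher without overlap (64.3%), 2 were lower and 12 were higher at an unadjusted p under 0.05. The list's median level was 27.5 FPKM, and of all genes at 10 to 30 FPKM 28.3% were higher without overlap and 8.89% at an unadjusted p under 0.05. In 37 of the 42 the value in 7KC-IMQ replicate 2 was above that in 7KC-IMQ replicate 1, as it was for *Atf4*, *Trib3*, *Chac1* and *Asns*, and among all genes tested this held for 8108 of 15896. Relative to the control mean, the median of the list was 0.17 in 7KC-IMQ replicate 1 and 0.28 in 7KC-IMQ replicate 2. *Slc7a11*, the cystine transporter, measured 5.84 and 4.59 FPKM in the control libraries and 8.48 and 15.3 FPKM in the 7KC-IMQ libraries, with a difference of 1.01 ± 0.29 (SE; adjusted p by limma = 0.356). *Stc2*, which encodes a secreted glycoprotein, measured 2.95 and 2.52 FPKM against 5.59 and 7.31 FPKM, with a difference of 0.99 ± 0.16 (SE; adjusted p by limma = 0.352). *Gdf15* and *Pck2* were the genes that were lower without overlap, with differences of -0.31 and -0.23.

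Grouped by role after their values were seen, the genes of the ATF4 list differed in how many were higher. All 8 aminoacyl-tRNA synthetases were higher without overlap, by 0.11 to 0.46 with a median of 0.26. Of all genes tested 23.9% were higher without overlap, and of those at 30 to 100 FPKM, the range of the synthetases' median level, 38.4%. Of 11 genes of amino acid and one-carbon synthesis, *Asns* among them, 8 were higher and 1 was lower without overlap, and the median was 0.26. *Shmt2*, the mitochondrial serine hydroxymethyltransferase, measured 40.8 and 41.4 FPKM in the control libraries and 62.1 and 66.8 FPKM in the 7KC-IMQ libraries and had the lowest adjusted p of all the lists. Of 5 amino acid transporters, 4 were higher, with a median of 0.32. The 18 remaining genes, transcription factors, secreted factors and stress regulators, include *Atf4*, *Ddit3*, *Trib3* and *Chac1*. Of these, 7 were higher (38.9%) and 1 was lower without overlap, and the median was 0.05. *Atf3*, a stress-induced factor of this role, measured 54.1 and 134.6 FPKM in the control libraries and 23.9 and 60.3 FPKM in the 7KC-IMQ libraries, with overlap. The differences between roles were not tested.

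**Figure D4:**
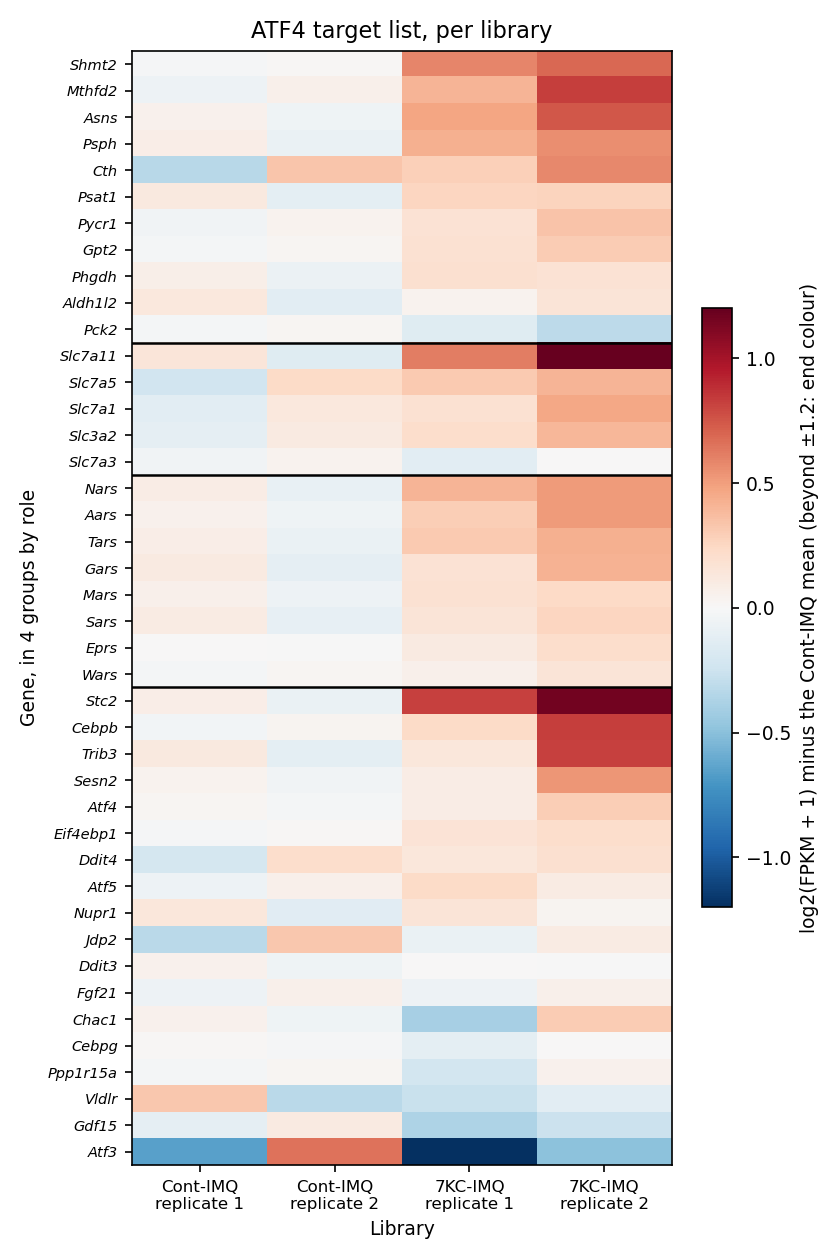
Level of each gene of the ATF4 list in each library as log2(FPKM + 1) minus the Cont-IMQ mean, with genes in rows grouped by role and the 4 libraries in columns. The 8 tRNA synthetases are above the control mean in both 7KC-IMQ columns, while *Ddit3* stays near 0 and *Chac1* is below it in 7KC-IMQ replicate 1 and above it in replicate 2.

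Other arms gave smaller numbers, to be read against the 23.9% higher and 22.9% lower without overlap among all genes. Of 8 eIF2alpha kinases and phosphatase subunits, 3 were higher without overlap, 0 were lower, 0 passed an unadjusted p under 0.05 by limma, and the median was 0.10. *Eif2s1*, which encodes eIF2alpha itself, measured 36.2 and 39.9 FPKM in the control libraries and 42.8 and 50.8 FPKM in the 7KC-IMQ libraries. Of 9 genes tied to cell death in ER stress, 3 were higher and 4 lower without overlap. At 1 to 10 FPKM, the range of this list's median level, 16.5% of all genes were higher without overlap. *Bbc3*, which encodes the BH3-only protein PUMA, measured 2.86 and 2.74 FPKM against 1.75 and 1.64 FPKM, with a difference of -0.50 and a limma adjusted p = 0.352. *Bax*, a pore-forming protein of mitochondria, measured 49.4 and 56.6 FPKM against 58.2 and 63.5 FPKM, with a difference of 0.20. The difference was 0.17 for *Pmaip1*, another BH3-only gene, and -0.18 for the survival gene *Bcl2*.

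All tested genes were also taken by the elements in their windows, without matching for level. Beside these counts, 23.9% of all genes tested were higher and 22.9% lower without overlap. Among the 17 genes with an ERSE, which include *Hspa5* and *Hsp90b1*, 9 were higher without overlap (52.9%), with a median of 0.14. Of these 17 genes, 9 belong to the pathway lists, so the count is not separate from those above. Of 8 genes with an ERSE-II, *Herpud1* among them, 4 were higher without overlap. Of 358 genes with a CARE, 82 were higher (22.9%) and 75 lower without overlap, and the median was -0.01, so the share with this element was near that of all genes although *Asns* and *Trib3* carry it. Of 364 genes with a UPRE, 104 were higher (28.6%) and 81 lower, with a median of 0.00.

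Markers of other cells moved between the same libraries. The summed FPKM of the neutrophil list was 2580 and 2124 in the control libraries against 7224 and 13820 in the 7KC-IMQ libraries. Of 7 tested markers, 6 were higher and 1 lower without overlap, and *Camp* was at 0 in a library. The most abundant markers weigh most in such a sum, and the median difference of the list was 0.57. The number of neutrophils was not measured. The neutrophil sum was highest in 7KC-IMQ replicate 2. That library also had the largest FPKM sum over all genes and the highest value of 8 of the 10 genes. Of 8 sebaceous gland markers, 6 were higher and 2 lower without overlap, and their summed FPKM was 606 to 730 in the Cont-IMQ group and 821 to 839 in the 7KC-IMQ group. Of 7 plasma and B cell markers, cells rich in ER and in *Xbp1*, 2 were higher and 2 lower without overlap, with summed FPKM of 240.3 and 283 against 275 and 325, and the defining markers *Jchain*, *Mzb1* and *Cd79a* were at 0 in a library. The part of these cells in the values of the 10 genes was not tested.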

How the data were processed

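Total RNA of dorsal skin was sequenced from stranded mRNA libraries as 75-base single-end reads. Per the labels, the authors used TopHat2 2.1.1, Bowtie2 2.2.8, SAMtools 0.1.18 and Cuffdiff 2.2.1 with mm10, and they deposited FPKM per gene, 1 file per library. The methods of the study name other versions of these aligners, and Cufflinks for the FPKM. FPKM is scaled to mapped reads and transcript length, so no count test was used, and Cuffdiff may also have rescaled the libraries. By the median ratio of each library to the geometric mean over libraries, the factors were 1.001 to 1.002. The deposited values were therefore already level by that measure.

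Genes with a mean of at least 0.1 FPKM were kept, and log2(FPKM + 1) was compared between groups in limma 3.58.1 (R 4.3.3; lmFit, eBayes with a variance trend, Benjamini-Hochberg adjustment). The test was run on simulated data with independent noise and with changes larger than those of the 10 genes. That run cannot show how well changes of the size seen here would be found. Alternatives were a pseudocount of 0.1, a minimum of 1 FPKM, no filter, 3 scalings, no trend, a replicate block and leaving out each library. The 10 genes and the lists were chosen with earlier results of these data known. Named genes were the 10 genes, every sensor and, in each other list, the 2 genes with the largest positive and the 2 with the largest negative differences among those of at least 1 FPKM without overlap. *Shmt2* and *Atf3* were named after their values were seen. GENCODE M21 gave gene positions, and RefSeq the promoter windows.

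Depth was estimated as the read number at which most low genes came to within 0.1 of a whole read, 74.2% to 77.5% of 503 to 518 genes.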

Additional observations from a re-analysis of the deposited data

How the results depend on the processing

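With 2 libraries per group, the sign of some small differences turned with a single library, and FPKM without read counts limits what depth can show. Of 372 values recomputed under 12 settings, 12 reversed their direction, and 37 others moved by more than the criterion for each kind of value. The remaining 323 kept their direction and, where tested, their side of the threshold, though not always their size. The number of genes past the adjusted threshold was 2 with a pseudocount of 0.1 and 1 to 9 with a library left out, and none was among the 10 ER stress genes or the lists. With a library left out, 1 to 3 of the 10 genes had an unadjusted p under 0.05 (3.87% to 14.7% of all genes) and 6 to 9 were higher without overlap, a share that was 33.3% to 38.8% of all genes against 23.9% with every library.

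The median difference of the 10 genes was 0.0640 with equal FPKM sums, 0.0620 after quantile normalization and 0.0975 to 0.241 with a library left out. Equal FPKM sums put the median of all genes tested at -0.0664, beside which the values under that setting are to be read. With equal FPKM sums, list medians were -0.0563 for sensors, 0.0866 for chaperones, -0.0404 for degradation, 0.130 for the ATF4 list, 0.0238 for eIF2alpha kinases, 0.0814 for export and -0.0522 for XBP1 and CREB3 factors. After quantile normalization they were 0.0915 for chaperones, 0.00301 for degradation, 0.0693 for eIF2alpha kinases, 0.0925 for export and -0.0476 for cell death. With a library left out, they were -0.0278 to 0.0448 for sensors, 0.156 to 0.179 for chaperones, 0.0368 to 0.0501 for degradation, 0.169 to 0.281 for the ATF4 list, 0.0602 to 0.125 for eIF2alpha kinases, 0.0646 to 0.285 for export, 0.0107 to 0.0950 for XBP1 and CREB3 factors and -0.141 to -0.0124 for cell death. With a library left out, single genes ran from -0.0351 to 0.0728 for *Atf6* and from -0.0504 to 0.0463 for *Ddit3*. With equal FPKM sums these 2 genes were at -0.0563 and -0.0797. With a library left out, *Chac1* ran from -0.403 to 0.306 and *Herpud1* from -0.0220 to 0.265. The cause was not tested.

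The groups share replicate numbers, but nothing in the labels ties equal numbers to a common litter or day, and the 2 pairs' deviations correlated at 0.0776 over 13110 genes. With the replicate block, the median difference of the 10 genes stayed at 0.15, 0 of them passed the adjusted threshold, and 1 gene in all passed it by limma.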
